A study of Mus musculus with 61 samples.

Results

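The stretch described here lies on the map of the mouse immunoglobulin heavy chain locus, Igh, between the capture probes named IgG3 and Emu. It spans 34 bins of 1 kb, starting after bin 180 of the map, and no capture probe sits inside it. Positions in it are counted from 1 at its IgG3 side to 34 at its Emu side. Its contacts are all bin pairs with at least 1 end in these bins and no end in bins 1 to 25, which gives 6545 of 27495 bin pairs. They were chosen by position, and split by where the other end lies. Of them, 1190 reach bins 26 to 60, which hold the hs4 viewpoint, and 2380 reach bins 61 to 130, which hold the IgG2a viewpoint. A further 1700 reach the bins between there and bin 180, which hold the IgG1 and IgG3 viewpoints, 595 have both ends in the stretch, and 680 reach the last 20 bins of the map, which hold the Emu viewpoint. These classes are called below the hs4 zone, the IgG2a zone, the IgG1/IgG3 zone, the stretch itself and the Emu zone.

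Tri-C reads out 3 places that lie together in 1 cell, the viewpoint caught by the probe and a pair of further sites, so each map shows which pairs come together at that viewpoint. The 61 libraries came from mouse primary B cells crosslinked with formaldehyde and cut with NlaIII. The activation series compared cells at 0 h, 48 h and 72 h at the Emu, hs4 and IgG1 probes, with 2, 3 and 3 libraries at these times for each probe, and for each of 2 clones at the IgG1 probe. The titles of this series, of the TPL series and of the IgG3 series name B18 AIDKO cells, that is, cells without AID, the deaminase that starts class switching, at every time point including the controls. The IgG3 series compared 3 libraries at day 0 with 3 at day 3 of LPS. The TPL series, at the Emu probe, compared cells activated for 72 h with no TPL, with 1 h of TPL and with 3 h of TPL, 3 libraries each. TPL is not spelled out in the labels, and the titles of the libraries without it end in a mark that the others lack. In the Spt5 series, controls were set against cells that had been activated for 62 h, with 4HT in the last 32 h, to deplete Spt5, a transcription elongation factor. It has 4 control and 5 depleted libraries at the IgG1 probe, from 2 clones, and 2 and 3 at the IgG2a probe. Its titles name no AIDKO background, its probe title at IgG1 reads as a pool, and no activation time is given for its controls. The growth medium in the labels holds LPS and IL4 for every library. What a clone is in primary cells is not stated, nor is it said that replicates are separate animals or cultures, so p-values measure the spread between these libraries, which may be technical.

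Class switching replaces the constant region of an antibody by joining a switch region near the J segments to one in front of another constant gene. The sites that join must first come close to each other, and the enhancers at both ends of the constant region, Emu and the regulatory region that holds hs4, are known to gather with the switch region that is being transcribed. By gene order in GRCm38.p6, a different build from that of these maps, the pseudogenes Gm9134, Gm9136 and Gm5190 and then Ighd and Ighm follow Ighg3 on the way to the J segments. The maps carry no coordinates, so which bins these genes fill is not given here.

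Depth, counted as contacts recovered from the deposited values, ranged from 4437 to 92016 per library with a median of 20691. The contacts of the stretch numbered 179 to 8640 per library, with a median of 2198. They were fewest in the TPL series without TPL, at 179 to 590. Bin 3 of the stretch was empty in 61 of 61 libraries, and up to 16 bins of the stretch were empty in a single library. The 53 pairs of replicates differed by more than counting noise, with a chi-square over its degrees of freedom of 3.253 to 22.3. Values are percentages of the total of 1 map and are given as mean ± SD. Since a map always sums to the same total, a gain of the stretch and a loss elsewhere cannot be told apart, nor can a change in more cells and a larger change in fewer cells.

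Seen from the IgG1 probe, with clones summed, and from the IgG3 probe the stretch held 15.3% to 19.3% of the map in every activation and LPS sample. Single IgG1 libraries of clone 1 ranged from 15.6% to 19.7%, and those of clone 2 from 12.7% to 16.9%. From the hs4 probe it held 7.25% to 13.5% and from the Emu probe of the activation series 5.41% to 16.9%. In the Spt5 series it held 8.49% to 11.6% at the IgG1 probe and 4.85% to 8.79% at the IgG2a probe. The largest class was contacts inside the stretch itself. Contacts with the IgG2a zone, the largest class by number of bin pairs, held at most 2.91% of the map in any sample with clones summed, at the IgG1 probe at 0 h, and at most 3.13% in a single library of that probe.

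**Figure D1:**
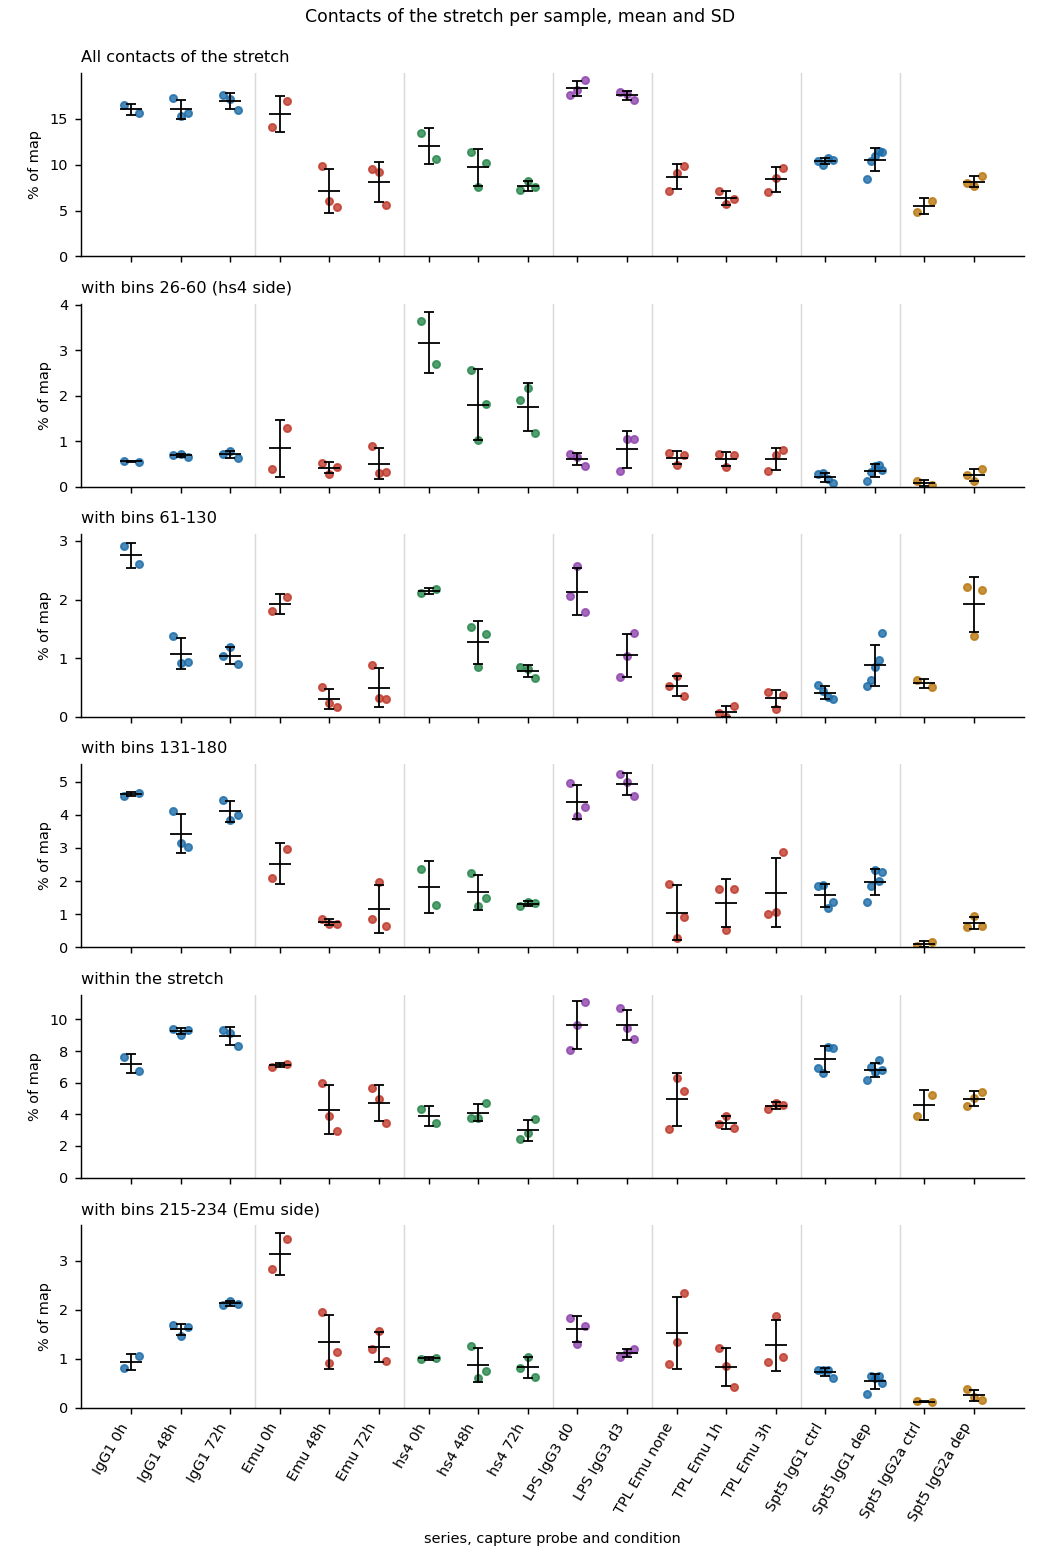
Each panel plots the percentage of the map (y axis) per sample for 1 class of contacts of the stretch, by series, capture probe and condition (x axis). Points are samples, and the black bar is the mean with its SD. Contacts with bins 61 to 130 lie at 2.61% and 2.91% at 0 h of the IgG1 probe and at 0.905% to 1.38% in all activated samples of that probe.

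After activation contacts of the stretch seen from the IgG1 probe fell with the IgG2a zone and rose with the Emu zone. The summed-clone samples had 2.91% and 2.61% of the map as contacts of the stretch with the IgG2a zone at 0 h. At 48 h the values were 1.38%, 0.922% and 0.937%, and at 72 h 1.03%, 1.19% and 0.905%, all under those at 0 h. This class fell by 1.36 on the log2 scale at 48 h (SE 0.196, limma adjusted p = 0.000477) and by 1.39 at 72 h (SE 0.196, limma adjusted p = 0.000375). Each comparison set 3 activated samples against the same 2 at 0 h. Contacts with the Emu zone were at 0.817% and 1.06% at 0 h, at 1.68%, 1.47% and 1.66% at 48 h and at 2.09%, 2.18% and 2.12% at 72 h. The 3 times did not overlap, with log2 changes of 0.77 at 48 h (SE 0.115, limma adjusted p = 0.000538) and 1.18 at 72 h (SE 0.115, limma adjusted p = 4.56e-05). From 48 h to 72 h the same class differed by 0.41 (SE 0.103), which missed the threshold over the whole zone table (limma adjusted p = 0.068). Without 0 h replicate 1 or 2, or without 48 h replicate 1, it passed (limma adjusted p = 0.0282 to 0.0459).

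Contacts inside the stretch at the IgG1 probe were at 7.62% and 6.76% at 0 h, at 9.40%, 9.03% and 9.32% at 48 h and at 9.35%, 9.15% and 8.29% at 72 h, with all activated samples above 0 h. They rose by 0.37 at 48 h (SE 0.0813, limma adjusted p = 0.00503) and by 0.31 at 72 h (limma adjusted p = 0.0114), but with scaling by the median of ratios the 72 h change was -0.04 and that at 48 h 0.11 (limma adjusted p = 0.206). With the stretch narrowed by 5 bins at each side neither was called (0.24 and 0.18, limma adjusted p = 0.0622 and 0.138), nor was that at 48 h without pairs under 5 kb apart (0.38, limma adjusted p = 0.0909). Without 0 h replicate 2 the 72 h rise was 0.23 and lost its call (limma adjusted p = 0.0848). Contacts with the hs4 zone were at 0.568% and 0.549% at 0 h, at 0.688%, 0.726% and 0.652% at 48 h and at 0.723%, 0.783% and 0.633% at 72 h. This class rose by 0.29 and 0.34 (limma adjusted p = 0.0274 and 0.0153), with values of 0.04 and -0.01 and no call under scaling by the median of ratios. Neither was called with the narrowed stretch (0.04 and 0.24) or with voom on recovered contacts (0.14 and 0.33), nor was that at 48 h without pairs near the viewpoint (0.21) or with clones kept apart (0.29). The 48 h call was lost without 0 h replicate 1 or 2 or 48 h replicate 2 (limma adjusted p = 0.073 to 0.129), and the 72 h call without 0 h replicate 1 or 2 (limma adjusted p = 0.0513 and 0.0848). Scaling by the median of ratios moved the median change over all zone features by -0.252 at 48 h and -0.353 at 72 h.

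Contacts of the stretch with the IgG1/IgG3 zone, where the IgG1 probe itself sits, were at 4.58% and 4.67% at 0 h. They lay at 4.10%, 3.15% and 3.04% at 48 h and at 4.46%, 3.85% and 4.01% at 72 h, lower in each activated sample. The 48 h fall of 0.44 passed the test (SE 0.136, limma adjusted p = 0.0223) and the 72 h change of -0.17 did not (limma adjusted p = 0.303), but under scaling by the median of ratios the latter was -0.53 and passed (limma adjusted p = 0.00239). Without 48 h replicate 1 the change from 48 h to 72 h was 0.41 and passed (limma adjusted p = 0.0186). The 48 h call was lost without 0 h replicate 1 or 2 or without 48 h replicate 2 or 3 (limma adjusted p = 0.0612 to 0.093), and the change was -0.05 when pairs under 5 kb apart were left out. The whole stretch held 16.5% and 15.6% of the map at 0 h, 17.3%, 15.3% and 15.6% at 48 h and 17.7%, 17.2% and 15.9% at 72 h, with overlapping ranges. Its log2 changes were -0.0027 (SE 0.0799) and 0.074 (SE 0.0799), and neither passed (limma adjusted p = 0.974 and 0.411). Under scaling by the median of ratios they were -0.26 and -0.28 and passed as a fall (limma adjusted p = 0.0046 and 0.00305). With voom the 72 h change was 0.25 and passed as a rise (limma adjusted p = 0.00246), as did that from 48 h to 72 h at 0.15 (limma adjusted p = 0.0303).

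Behind these sums the clones differed. In clone 1 the stretch went from 16.4% and 15.6% of the map at 0 h to 19.7%, 17.1% and 18.5% at 48 h. In clone 2 it went from 16.6% and 15.7% to 14.9%, 13.5% and 12.7%, so that all 48 h samples lay above 0 h in clone 1 and below 0 h in clone 2. Contacts with the IgG2a zone were lower in both, with log2 ratios of means of -1.06 in clone 1 and -1.74 in clone 2 at 48 h and of -1.17 and -1.70 at 72 h. Contacts with the Emu zone were higher in both, with ratios of 0.90 and 0.62 at 48 h and of 1.28 and 1.07 at 72 h. With clone 2 alone the 48 h rise at the Emu zone missed the threshold (limma adjusted p = 0.0643). Contacts inside the stretch had ratios of 0.61 and 0.11 at 48 h and of 0.37 and 0.26 at 72 h, and no call in clone 2 alone (limma adjusted p = 0.437 and 0.0773). Contacts with the IgG1/IgG3 zone had ratios of -0.21 and -0.71 at 48 h and of 0.10 and -0.53 at 72 h. The fall at 48 h was not called in clone 1 alone (limma adjusted p = 0.151), and the 72 h change passed in clone 2 alone (limma adjusted p = 0.0366). The rises with the hs4 zone were called in neither clone alone (limma adjusted p = 0.064 to 0.352).

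Of the 6 zone features of the stretch, 5 were called at 48 h and 4 at 72 h, beside 69.2% and 73.1% of the 26 features of the whole zone table, and limma called 0 from 48 h to 72 h, beside 3.85%, with 1 at an unadjusted p under 0.05 and 3 called by voom on recovered contacts. On the finer table of blocks of 8 to 10 kb, 69 of the 82 block pairs of the stretch could be tested. At 48 h, 16 were called, 6 higher and 10 lower, where the whole table had 40.5% called, 13.6% higher and 26.8% lower. At 72 h, 20 were called, 10 each way, beside 40.1%, 15.6% and 24.5%. Their share was thus below that of the whole map at both times. From 48 h to 72 h limma called 0 of 69, beside 0% of the table, with 8 at an unadjusted p under 0.05, and voom called 0. Their median log2 change was -0.39 at 48 h and -0.24 at 72 h, beside -0.28 and -0.23 over all block pairs. The count depended on single samples, each of which holds both clones. It was lower at both times without 0 h replicate 1, a fit that leaves 1 sample at 0 h. At 72 h it was 12 without 72 h replicate 2.

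Among called block pairs, those with the largest fall linked the stretch to the IgG2a zone. The pair of map bins 111 to 120 with positions 9 to 17 held 0.189 ± 0.0892% in the 2 samples at 0 h, 0.0257 ± 0.00929% in the 3 samples at 48 h and 0.0192 ± 0.00837% in those at 72 h, with log2 changes of -2.23 and -2.47 (limma adjusted p = 0.000995 and 0.000297). In clone 1 alone they were -0.79 and -1.0 and not called (limma adjusted p = 0.326 and 0.201). The pair of map bins 91 to 100 with positions 18 to 26 fell by 2.02 and 1.98 (limma adjusted p = 0.00339 and 0.00305), from 0.129% to 0.0182% and 0.0192%. Map bins 81 to 90 with positions 9 to 17 fell by 1.64 at 48 h (limma adjusted p = 0.0245) and map bins 121 to 130 with positions 1 to 8 by 1.96 at 72 h (limma adjusted p = 0.00224). The first of these 2 calls was lost without 0 h replicate 1 or 48 h replicate 2 or 3, with values of -1.64 to -1.02 (limma adjusted p = 0.0555 to 0.279), and under scaling by the median of ratios or without pairs under 5 kb apart (limma adjusted p = 0.0609 and 0.088). These are small numbers, with 10 contacts or fewer per activated sample on average in each of the 4 pairs. The largest rises lay on the Emu side. The pair of positions 18 to 26 with the last 10 bins of the Emu zone, where the viewpoint lies, rose by 1.37 at 48 h and 1.78 at 72 h (limma adjusted p = 0.0376 and 0.00858), from 5.5 contacts on average to 32.3 and 35. Without 0 h replicate 1 the rises were 0.37 and 0.78 and neither was called (limma adjusted p = 0.645 and 0.294), and that at 48 h was 0.86 and not called without 48 h replicate 3 (limma adjusted p = 0.197). In clone 1 alone neither was called (limma adjusted p = 0.23 and 0.158), and that at 48 h missed with a pseudocount of 200 (0.81) and with no filter on low values (limma adjusted p = 0.0546 and 0.0614). Positions 9 to 17 with the first 10 bins of the Emu zone rose by 1.31 at 48 h (limma adjusted p = 0.00308), from 0.0727 ± 0.0215% to 0.202 ± 0.00514%, with no overlap. Positions 9 to 17 and 1 to 8 with the last 10 bins of that zone rose by 1.70 and 1.32 at 72 h (limma adjusted p = 0.0136 and 0.0434). The first was 0.66 without 0 h replicate 1 and 1.20 without 72 h replicate 3, with no call (limma adjusted p = 0.409 and 0.0858). The second ranged from 0.78 to 1.32 with no call without 0 h replicate 2, 48 h replicate 2 or 72 h replicate 2 or 3 (limma adjusted p = 0.0535 to 0.371), and also missed with a pseudocount of 10, with no filter on low values, without pairs under 5 kb apart and with clones kept apart (limma adjusted p = 0.0521 to 0.0898). On the far side, map bins 26 to 34, around hs4, with positions 27 to 34 rose by 1.20 at 48 h (limma adjusted p = 0.022), a call lost without 0 h replicate 1 (0.93, limma adjusted p = 0.163) or 48 h replicate 3 (1.02, limma adjusted p = 0.0875) and in clone 1 alone (0.80, limma adjusted p = 0.204). Of the 12 calls on named block pairs at both times, 11 missed the threshold in at least 1 clone taken alone.

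From the Emu probe, 16 kb beyond the end of the stretch, the stretch had lost contacts at 48 h with 3 of its 5 partner classes. It held 14.1% and 16.9% of the map at 0 h, 9.86%, 6.05% and 5.41% at 48 h and 9.53%, 9.16% and 5.65% at 72 h, so that no activated sample reached the 0 h values. The total fell by 1.17 at 48 h (SE 0.331, limma adjusted p = 0.0268), and its 72 h change of -0.97 just missed the threshold (SE 0.331, limma adjusted p = 0.0545). With 2 samples at 0 h these calls were fragile. The 48 h call was lost without 0 h replicate 1 or 2 or without 48 h replicate 2 or 3, with values of -1.3 to -1.0 (limma adjusted p = 0.0721 to 0.135), and with the narrowed stretch (-1.11, limma adjusted p = 0.0818). The 72 h change was called without 48 h replicate 1 (limma adjusted p = 0.03), which enters through the shared estimate of spread, and under 6 other settings, with values of -0.97 to -0.77. Scaling by the median of ratios moved the median of all zone features by 0.363 at 48 h and 0.165 at 72 h.

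The class that fell most from the Emu probe was again the IgG2a zone. It was at 1.80% and 2.05% at 0 h, at 0.503%, 0.230% and 0.176% at 48 h and at 0.880%, 0.325% and 0.298% at 72 h, without overlap. The falls were 2.73 (SE 0.559, limma adjusted p = 0.00894) and 2.08 (SE 0.559, limma adjusted p = 0.0272) on the log2 scale. Without 0 h replicate 1 or 2 neither was called (limma adjusted p = 0.056 to 0.138), and without 72 h replicate 2 or 3 the later one was not (limma adjusted p = 0.0665 and 0.0644). As a percentage of the map, contacts with the Emu zone, where this probe sits, went the other way from what the IgG1 probe saw. They went from 2.84% and 3.44% at 0 h to 1.96%, 0.924% and 1.14% at 48 h and 1.21%, 1.57% and 0.964% at 72 h. They fell by 1.28 and 1.34 (SE 0.346, limma adjusted p = 0.0243 and 0.0272), with no overlap. Without pairs under 5 kb apart the 48 h change was -0.77 and not called (limma adjusted p = 0.0673), nor was it with the narrowed stretch (-1.48, limma adjusted p = 0.0688). The 48 h call was also lost without 0 h replicate 1 or 2 or 48 h replicate 2 or 3 (limma adjusted p = 0.0662 to 0.135), and the 72 h call without 0 h replicate 1 or 2 or 72 h replicate 1 or 3 (limma adjusted p = 0.0594 to 0.138).

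Contacts with the IgG1/IgG3 zone were at 2.09% and 2.96% at 0 h, at 0.861%, 0.710% and 0.696% at 48 h and at 0.848%, 1.98% and 0.633% at 72 h. The 48 h fall of 1.70 was called (SE 0.449, limma adjusted p = 0.0243), and was lost without 0 h replicate 1 or 2 or 48 h replicate 2 or 3 (limma adjusted p = 0.0644 to 0.135) and without pairs under 5 kb apart (-1.23, limma adjusted p = 0.0506). The 72 h change of -1.27 was not called (limma adjusted p = 0.0545), and without 72 h replicate 2, the highest of that time, it was -1.74 and passed (limma adjusted p = 0.00876). It passed as well with a pseudocount of 200 (-1.23, limma adjusted p = 0.0483) and as a percentage of pairs with no end in bins 1 to 25 (-1.27, limma adjusted p = 0.0438). Inside the stretch the values were 7.02% and 7.20% at 0 h, 6.00%, 3.91% and 2.95% at 48 h and 5.69%, 4.98% and 3.44% at 72 h. Each activated sample was lower, but the changes of -0.79 and -0.63 did not pass (limma adjusted p = 0.0968 and 0.174). Without 48 h replicate 1 that at 48 h was -1.06 and passed (limma adjusted p = 0.0254), as it did with voom (-0.64, limma adjusted p = 0.0157). Contacts with the hs4 zone, at 0.397% and 1.28% at 0 h and 0.282% to 0.902% afterwards, overlapped and were not called (limma adjusted p = 0.288 and 0.441), though voom called the 72 h change (-1.21, limma adjusted p = 0.049).

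Of the 6 zone features, 4 were called at 48 h and 2 at 72 h, beside 34.6% and 30.8% of the table, and limma called 0 between the 2 later times, beside 0%, with 0 at an unadjusted p under 0.05 and 0 called by voom. The finer table could test 43 of the 82 block pairs. At 48 h limma called 0, beside 2.49% of all pairs, with 15 of 43 at an unadjusted p under 0.05, and voom on recovered contacts called 9. At 72 h it called 1, beside 4.48%. That pair, map bins 171 to 180 beside the IgG3 viewpoint with positions 9 to 17, went from 0.260% and 0.305% to 0.00871 ± 0.0151% (n = 3, of which the highest was 0.0261%), a change of -3.71 (limma adjusted p = 0.0418) that rests on 15 against 2 contacts on average. No block pair was called without 0 h replicate 1, without 48 h replicate 1 or 3 or without any of the 72 h samples, and 2 were without 48 h replicate 2. The named pair was also lost without 0 h replicate 2 (limma adjusted p = 0.0983), and with a pseudocount of 10, no filter on low values, no pairs under 5 kb apart or voom (limma adjusted p = 0.0506 to 0.179). From 48 h to 72 h limma and voom called 0 of 43, beside 0%, with 2 at an unadjusted p under 0.05. The median change of the tested block pairs was -1.34 at 48 h and -1.07 at 72 h, beside -0.54 and -0.33 over all pairs.

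The hs4 probe lies 149 kb before the first bin of the stretch. The stretch held 13.5% and 10.6% of its map at 0 h, 11.4%, 7.53% and 10.2% at 48 h and 7.25%, 8.26% and 7.55% at 72 h. The 72 h samples all lay under those at 0 h, but the changes of -0.32 and -0.64 missed the threshold (limma adjusted p = 0.342 and 0.0851). Without 48 h replicate 2 the 72 h change was called (limma adjusted p = 0.0215), as it was under 4 other settings, with values of -0.73 to -0.54. Contacts with the IgG2a zone were at 2.12% and 2.18% at 0 h, at 1.54%, 0.857% and 1.42% at 48 h and at 0.855%, 0.815% and 0.668% at 72 h. At 72 h this class fell by 1.45 (SE 0.257, limma adjusted p = 0.0182), while the 48 h change of -0.79 was not called (limma adjusted p = 0.112). That at 48 h passed under scaling by the median of ratios (-0.73, limma adjusted p = 0.0448), without pairs near the viewpoint (-0.89, limma adjusted p = 0.0282) and with voom (-0.85, limma adjusted p = 0.0385). The 72 h call was lost without 0 h replicate 1 or 2 or 72 h replicate 2 or 3 (limma adjusted p = 0.0567 to 0.0971). From 48 h to 72 h the change was -0.66 (limma adjusted p = 0.176), and passed at -0.92 without 48 h replicate 2 (limma adjusted p = 0.0122), at -0.75 under scaling by the median of ratios (limma adjusted p = 0.0385) and at -0.96 without pairs under 5 kb apart (limma adjusted p = 0.0066).

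Contacts with the hs4 zone, the zone of this viewpoint, were at 3.64% and 2.69% at 0 h, at 2.58%, 1.02% and 1.81% at 48 h and at 1.92%, 2.18% and 1.17% at 72 h. They lay lower in each activated sample, with changes of -0.89 and -0.87 that did not pass (limma adjusted p = 0.226 and 0.232). Without pairs near the viewpoint the 48 h change was -2.12 and passed (limma adjusted p = 0.0282), and voom called both (-1.25 and -1.01, limma adjusted p = 0.000122 and 0.00229). Inside the stretch the values ran from 2.42% to 4.71%, with the IgG1/IgG3 zone from 1.24% to 2.37%, and with the Emu zone from 0.614% to 1.26%, with overlap between 0 h and at least 1 later time in each. Of the 6 zone features limma called 0 at 48 h, 1 at 72 h and 0 between these times, beside 7.69%, 15.4% and 0% of the table. At 48 h 1 had an unadjusted p under 0.05 and voom called 2, and between these times 2 had and voom called 0. Of 68 block pairs tested limma called 0 in each comparison, beside 3.77%, 3.4% and 0%, with 10, 6 and 4 at an unadjusted p under 0.05. Voom on recovered contacts called 1 at 48 h, 1 at 72 h and 0 between. Leaving out 48 h replicate 3 gave 1 call at 48 h, and leaving out 0 h replicate 2 gave 1 at 72 h.

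From the IgG3 probe, 11 kb before its first bin, the stretch held 17.7%, 18.2% and 19.3% of the map at day 0 and 18.0%, 17.7% and 17.0% at day 3 of LPS, which overlap (log2 change -0.063, SE 0.0737, limma adjusted p = 0.56). Contacts with the IgG2a zone were at 2.06%, 2.57% and 1.78% at day 0 and at 0.680%, 1.04% and 1.43% at day 3, with no overlap. The change of -1.06 (SE 0.305) did not pass (limma adjusted p = 0.138). It passed with the stretch narrowed by 5 bins at each side (-1.44, limma adjusted p = 0.0114) and with voom on recovered contacts (-0.89, limma adjusted p = 0.0293). Contacts with the Emu zone were at 1.82%, 1.31% and 1.68% and then 1.04%, 1.14% and 1.19%, again without overlap and not called (log2 change -0.49, SE 0.149, limma adjusted p = 0.138). Inside the stretch they were at 8.08%, 9.67% and 11.1% and then 10.7%, 9.46% and 8.79%. Limma called 0 of the 6 zone features, beside 0% of the table, with 2 at an unadjusted p under 0.05 and 1 called by voom. It called 1 of 69 block pairs, beside 1.24%, with 7 at an unadjusted p under 0.05. That pair, map bins 91 to 100 with positions 9 to 17, held 0.0634% to 0.391% at day 0 and was empty in the 3 day 3 libraries (limma adjusted p = 0.0191). It rests on 6.67 contacts on average at day 0 and was not called without day 0 replicate 1 or 3, with a pseudocount of 10, with no filter on low values or without pairs under 5 kb apart (limma adjusted p = 0.0587 to 0.417).

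**Figure D2:**
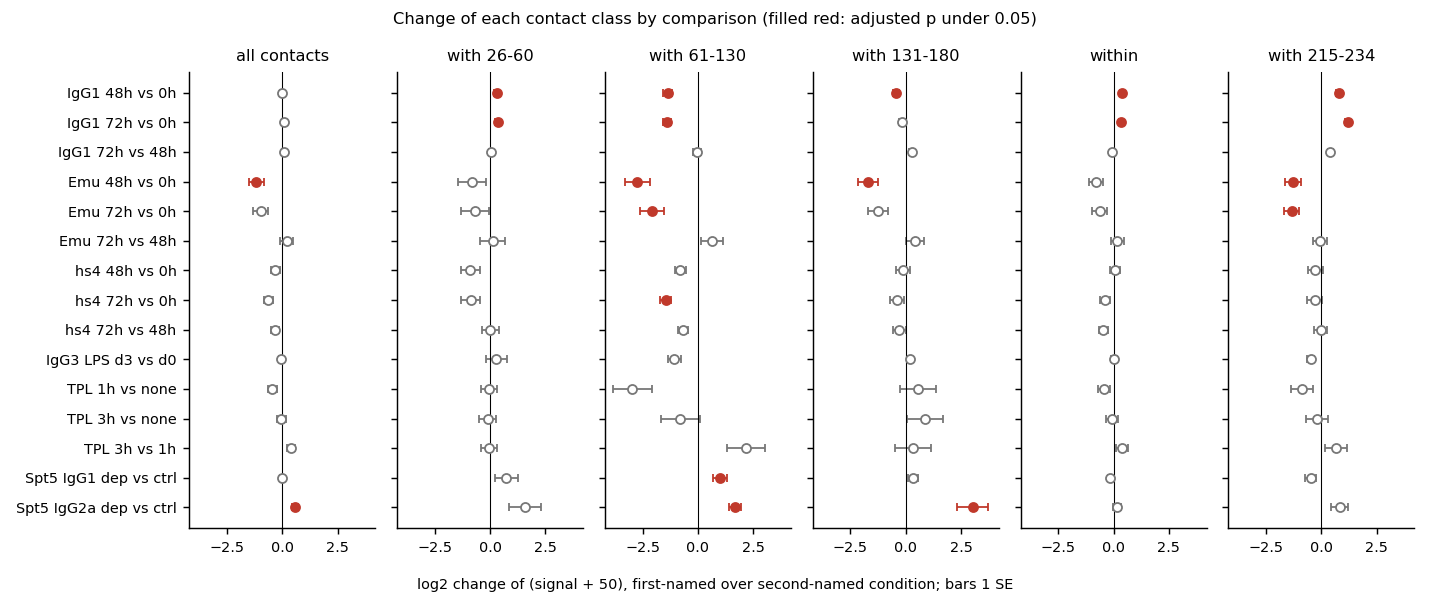
The log2 change of the signal plus 50 (x axis) is shown for each class of contacts of the stretch (panels) in each of the 15 comparisons (y axis), with bars of 1 SE and filled red points for an adjusted p under 0.05. Contacts with bins 61 to 130 fell in the IgG1 and Emu comparisons with 0 h and in that of hs4 at 72 h, and rose with Spt5 depletion. Without pairs under 5 kb apart neither rise with Spt5 depletion was called. Under scaling by the median of ratios the rises at 72 h inside the stretch and with bins 26 to 60 at the IgG1 probe, and the rise of the total at the IgG2a probe, change sign.

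Whether the change with activation differed between probes was tested as an interaction. At the Emu zone, the change seen from Emu was lower than that seen from IgG1, with a difference of -2.06 at 48 h (SE 0.544, limma adjusted p = 0.003) and of -2.52 at 72 h (limma adjusted p = 0.000241). Inside the stretch the differences were -1.15 and -0.94 (limma adjusted p = 0.00443 and 0.0162), and for the total -1.17 and -1.04 (limma adjusted p = 0.00133 and 0.00217). These were 3 of 6 features at each time, beside 34.6% and 42.3% of the table. Between hs4 and IgG1 the total differed by -0.71 and contacts with the Emu zone by -1.49 at 72 h (limma adjusted p = 0.0306 and 0.0222), 2 of 6 beside 46.2%, and 0 of 6 at 48 h beside 38.5%. Between Emu and hs4 the 48 h changes inside the stretch and of the total differed by -0.86 and -0.85 (limma adjusted p = 0.042 and 0.0344), 2 of 6 beside 30.8%, and 0 of 6 at 72 h beside 11.5%. The LPS change at IgG3 set against the 72 h changes gave 1 of 6 against Emu, the total at 0.91 (limma adjusted p = 0.0124, beside 11.5%), and 0 of 6 against hs4, beside 11.5%. Against IgG1 it gave 1 of 6, the Emu zone at -1.68 (limma adjusted p = 0.00824, beside 30.8%). In the last 3 the series and the treatment in the titles differ as well as the probe, which cannot be told apart. Under scaling by the median of ratios the differences of the total between Emu and IgG1 were -0.47 and -0.57 and not called (limma adjusted p = 0.318 and 0.113). For the IgG2a zone, no difference between probes was called, with values from -1.94 (SE 0.82, Emu against hs4 at 48 h, limma adjusted p = 0.0623) to 1.02 (IgG3 against Emu).

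As a percentage of the map, contacts of the stretch with the IgG2a zone had a higher mean after depletion of Spt5 at the IgG1 and IgG2a probes. At the IgG1 probe the control libraries had 0.550% and 0.442% in clone 1 and 0.347% and 0.312% in clone 2. The depleted libraries had 0.532% and 0.634% in clone 1 and 0.854%, 0.974% and 1.43% in clone 2. The change was 1.00 with clone as a term (SE 0.302, limma adjusted p = 0.0431). The groups did not overlap in clone 2, where the log2 ratio of means was 1.72, and overlapped in clone 1, where it was 0.23. The call was close to its threshold. It was lost in 7 of 9 fits that left out 1 library, with values of 0.80 to 1.09 (limma adjusted p = 0.0599 to 0.16), and held without control clone 1 replicate 1 and without depleted clone 1 replicate 3. It was lost as well without pairs under 5 kb apart (0.56, limma adjusted p = 0.0557) and with the narrowed stretch (1.04, limma adjusted p = 0.0799). Leaving out those close pairs takes none from this class and changes only the sum of the map it is set against. The total was at 10.4%, 9.99%, 10.8% and 10.5% in controls and at 8.49%, 10.4%, 10.9%, 11.6% and 11.4% after depletion, which overlap (log2 change -0.0056, SE 0.0888, limma adjusted p = 0.951).

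Other classes at the IgG1 probe did not pass. Contacts with the Emu zone were at 0.772%, 0.771%, 0.779% and 0.603% in controls and at 0.284%, 0.643%, 0.614%, 0.655% and 0.502% after depletion (log2 change -0.49, limma adjusted p = 0.248). Without pairs under 5 kb apart this change was -0.98 and passed (limma adjusted p = 0.0113). Contacts inside the stretch had 6.60% to 8.27% in controls and 6.19% to 7.43% after depletion (log2 change -0.15, limma adjusted p = 0.278). Contacts with the hs4 zone had a log2 change of 0.74 (limma adjusted p = 0.382), and of 1.20 without depleted clone 1 replicate 3 (limma adjusted p = 0.0493). Only 1 of 6 zone features was called, beside 26.9%, and 1 of 43 block pairs, beside 10%. That pair lay wholly at the Emu end of the stretch, positions 27 to 34 with themselves, and went from 2.97 ± 0.342% (n = 4) to 2.11 ± 0.124% (n = 5) without overlap. It fell by 0.49 (SE 0.135, limma adjusted p = 0.0134), and was lost without control clone 2 replicate 1 or 2, under scaling by the median of ratios (-0.86), with no filter on low values and without pairs under 5 kb apart (-0.84), with limma adjusted p from 0.0512 to 0.604.

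At the IgG2a probe, 95 kb before the stretch, the control libraries had 0.626% and 0.517% of the map as contacts of the stretch with the IgG2a zone and the depleted ones 2.22%, 1.38% and 2.17%. They rose by 1.70 without overlap (SE 0.271, limma adjusted p = 0.0204). The call was lost without control replicate 2 or depleted replicate 1 or 3 (limma adjusted p = 0.0525 to 0.0844), and without pairs under 5 kb apart, when the value was 0.49 (limma adjusted p = 0.481). That last setting takes no pair from this class and changes only the sum of the map it is set against. Contacts with the IgG1/IgG3 zone were at 0.0289% and 0.169% in controls and at 0.628%, 0.943% and 0.652% after depletion. They rose by 3.02 (SE 0.684, limma adjusted p = 0.0374), from 7 contacts on average to 94, and the call was lost without any 1 of the 3 depleted libraries (limma adjusted p = 0.081 to 0.121). It was lost as well under scaling by the median of ratios (2.44, limma adjusted p = 0.0516), without pairs near the viewpoint (3.13, limma adjusted p = 0.0572) and without pairs under 5 kb apart (2.09, limma adjusted p = 0.347). The total was at 4.85% and 6.07% and then 7.99%, 7.70% and 8.79%. It rose by 0.59 (SE 0.146, limma adjusted p = 0.0447), but was -0.05 under scaling by the median of ratios, which moved the median of all zone features by -0.5, and was not called without pairs near the viewpoint (0.48) or under 5 kb apart (0.57). That call was lost without control replicate 1 and without each depleted library, with values of 0.42 to 0.63 (limma adjusted p = 0.0665 to 0.153).

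Contacts inside the stretch at that probe were at 3.92% and 5.24% in controls and 4.51%, 5.02% and 5.43% after depletion, which overlap (limma adjusted p = 0.557). Of the 6 zone features 3 were called, beside 34.6%, and limma called 0 of 30 block pairs, beside 0.61%, with 9 at an unadjusted p under 0.05 and 4 called by voom on recovered contacts. Without control replicate 1 it called 5, and without control replicate 2 it called 3. The Spt5 changes differed between the IgG1 and IgG2a probes for the IgG1/IgG3 zone by -2.69 (limma adjusted p = 0.00209), for the Emu zone by -1.33 (limma adjusted p = 0.0228) and for the total by -0.59 (limma adjusted p = 0.0401, and 0.08 with no call under scaling by the median of ratios). These were 3 of 6, beside 50% of the table. For the IgG2a zone the difference was -0.70 (SE 0.721, limma adjusted p = 0.424).

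With TPL at the Emu probe, the stretch held 7.17%, 9.07% and 9.82% of the map without the compound, 7.16%, 5.70% and 6.21% after 1 h and 7.03%, 8.52% and 9.69% after 3 h. The 1 h samples all lay below those without TPL, the nearest at 7.16% against 7.17%, but the change of -0.44 (SE 0.197) did not pass (limma adjusted p = 0.133), and that at 3 h was -0.046 (SE 0.197, limma adjusted p = 0.928). Contacts with the IgG2a zone were at 0.534%, 0.695% and 0.352% without TPL, at 0.0726%, 0% and 0.188% after 1 h and at 0.428%, 0.143% and 0.375% after 3 h. The 1 h samples did not overlap those without TPL, with a change of -2.96 (SE 0.877, limma adjusted p = 0.0631) that rests on 20.7 against 8.33 contacts on average. It passed without 1 h replicate 2, the library at 0 (-1.96, limma adjusted p = 0.0379), and with voom on recovered contacts (-2.94, limma adjusted p = 0.027). As a percentage of pairs with no end in bins 1 to 25 it passed too (-3, limma adjusted p = 0.0377). Limma called 0 of 6 zone features in each of the 3 comparisons, beside 0%, 3.85% and 0% of the table, with 1, 0 and 1 at an unadjusted p under 0.05 and 1, 0 and 0 called by voom. It called 0 of 34 block pairs in each, beside 3.24%, 0% and 0%, with 3, 2 and 3 at an unadjusted p under 0.05, and voom gave no other count. The 9 TPL libraries held 179 to 940 contacts of the stretch each.

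As a share of the stretch's own contacts, the part that stayed inside the stretch was 44.7 ± 2.11% (n = 2) at 0 h, 57.8 ± 2.85% (n = 3) at 48 h and 52.8 ± 0.698% (n = 3) at 72 h from the IgG1 probe. The part that reached the IgG2a zone went from 17.2 ± 0.693% to 6.68 ± 1.16% and 6.16 ± 0.695%. From the Emu probe the part inside was 46.1 ± 5.02% at 0 h, 54.6% to 64.5% in the 3 samples at 48 h and 58.3 ± 3.47% at 72 h, and the part with the IgG2a zone went from 12.4 ± 0.431% to 4.06 ± 0.946% and 6.02 ± 2.92%. For both parts and both probes, no sample at 0 h lay within the range of a later time. With Spt5 depletion at the IgG2a probe the part inside went from 83.5 ± 3.83% (n = 2) to 61.1 ± 4.42% (n = 3), and that with the IgG2a zone from 10.7 ± 3.11% to 23.5 ± 5.02%. Of 75 such shares, none passed an exact two-sided permutation test after Benjamini-Hochberg adjustment (lowest adjusted p = 0.385). An exact permutation test of 2 against 3 samples cannot go below p = 0.2, and one of 3 against 3 not below 0.1. In 2 of them the exact permutation p was under 0.05. The lower was the share with the IgG2a zone at the IgG1 probe of the Spt5 series, 3.98 ± 1.09% (n = 4) against 8.22 ± 2.61% (n = 5), with an exact permutation p = 0.0159. That is the smallest value for 4 against 5 libraries shuffled without regard to clone, and the test did not keep the clones apart.

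**Figure D3:**
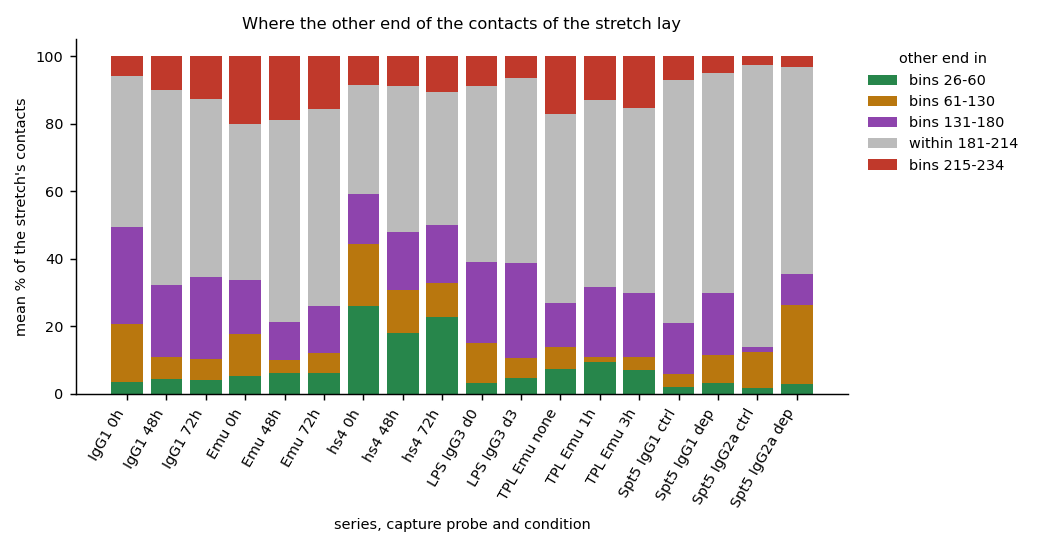
Stacked bars give the mean percentage of the stretch's contacts (y axis) whose other end lay in each zone, by series, capture probe and condition (x axis). The share with bins 61 to 130 is 17.2% at 0 h, 6.68% at 48 h and 6.16% at 72 h of the IgG1 probe, and the share inside the stretch is the largest in every group.

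Each class also depends on how much of the map the other zone holds, so contacts were set against the product of the shares of ends of both zones. This ratio of observed to expected, and the shares in it, leave out pairs with an end in map bins 1 to 25. The ratio has no test. For the IgG2a zone it went from 0.348 ± 0.00907 at 0 h to 0.217 ± 0.0366 and 0.237 ± 0.0202 at the IgG1 probe, where that zone's own share of ends went from 34.0% to 19.5% and 17.0%. At the hs4 probe it went from 0.522 ± 0.0663 to 0.290 ± 0.0278 and 0.233 ± 0.0459, while that zone's share of ends was 26.1%, 31.2% and 31.6%. At the Emu probe it was 0.357, 0.212 and 0.240, but 72 h replicate 1 at 0.360 lay between the 0 h samples at 0.330 and 0.385. At the IgG3 probe it was 0.341 at day 0 and 0.209 at day 3. These days overlapped, with day 3 replicate 3 at 0.290 and day 0 replicate 3 at 0.260. With Spt5 depletion it was 0.113 in controls and 0.171 after depletion at the IgG1 probe, and 0.0774 and 0.206 at the IgG2a probe. Over pairs 5 kb or more apart alone, Spt5 controls and depleted libraries overlapped at both probes. There it was 0.470 to 0.716 against 0.533 to 0.828 at IgG1. At IgG2a it was 0.903 and 0.680 against 0.871, 0.703 and 0.950. In this form activated samples still lay below 0 h at the IgG1 and hs4 probes. At Emu, 72 h replicate 1 was at 0.825, above 0.647 and 0.812 at 0 h. Over all pairs again, the ratio for the Emu zone at the IgG1 probe of the activation series went from 0.750 ± 0.191 to 0.366 ± 0.0271 and 0.434 ± 0.00922. It was lower in all activated samples. There the Emu zone's share of ends had gone from 5.42% to 17.3% and 19.0%. At that probe the percentage of contacts between the stretch and the Emu zone was higher and its ratio to the product of shares lower. At the Emu probe, where the percentage fell, this ratio was lower after activation as well. It was 0.375 and 0.395 at 0 h, 0.190 to 0.294 at 48 h and 0.214 to 0.312 at 72 h.

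Contacts inside the stretch lay mostly at short range. Pairs with both ends in the same bin made up 51.4% to 74.1% of them as group means, and pairs 5 kb or more apart 2.43% to 16.0%. Their ratio to the product of shares was 5.14 ± 0.122, 5.56 ± 0.447 and 5.12 ± 0.261 over the activation times at the IgG1 probe. At the Emu probe it was 5.36 ± 0.858, 13.6 ± 3.91 and 11.6 ± 3.83, and at the hs4 probe 5.97, 8.47 and 9.90. Restricted to pairs 5 kb or more apart, the ratio lay nearer to 1. It was 1.35, 1.57 and 1.58 at the IgG1 probe, 1.02, 2.54 and 2.59 at the Emu probe and 1.45, 1.86 and 2.99 at the hs4 probe. The 0 h samples at the Emu probe were at 1.41 and 0.625, and the 72 h samples at the hs4 probe at 2.00, 2.26 and 4.72. No activated sample at these 3 probes fell below the mean at 0 h of its own probe in this restricted ratio. At the IgG3 probe it was 1.39 at day 0 and 1.22 at day 3.

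**Figure D4:**
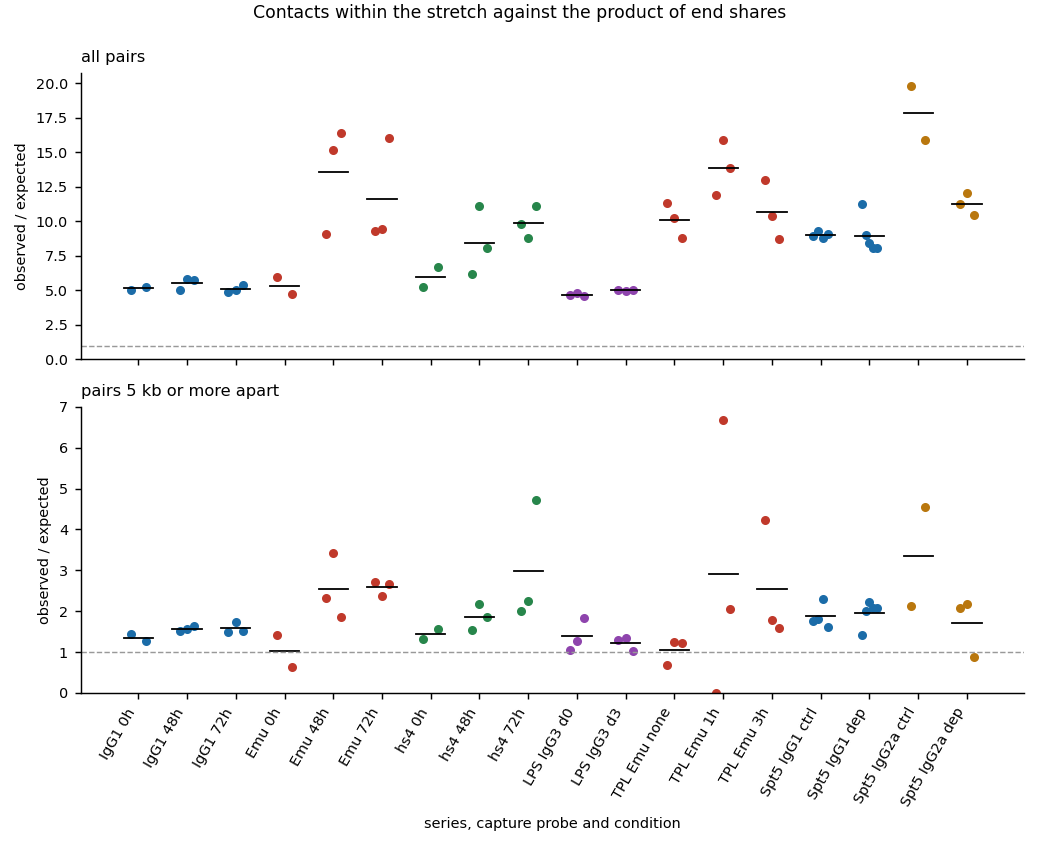
The ratio of observed contacts inside the stretch to the product of its shares of ends (y axis) is plotted per sample for all pairs (top) and for pairs 5 kb or more apart (bottom), by series, capture probe and condition (x axis). Points are samples, black lines means, and the dashed line marks 1. At the Emu probe the mean for pairs 5 kb or more apart is 1.02 at 0 h, 2.54 at 48 h and 2.59 at 72 h.

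Along the stretch, ends were unevenly spread. Only ends of pairs with no end in map bins 1 to 25 were counted here. Averaged over groups, the fullest positions were 21 with 0.521% of these ends, 26 with 0.510% and 29 with 0.484%, all in the Emu-side part of the stretch. The emptiest were 3 with none, 5 with 0.0467% and 9 with 0.0712%, which held no contact in 61, 21 and 15 of 61 libraries. The last 8 kb, positions 27 to 34, held 28.2 ± 1.35% of the ends of the stretch at 0 h, 35.6 ± 0.766% at 48 h and 37.0 ± 2.19% at 72 h at the IgG1 probe. All activated samples lay above 0 h there. At the Emu probe these bins held 43.3%, 40.3% and 43.6%, and at the hs4 probe 36.9%, 32.9% and 38.0%. With Spt5 depletion at the IgG1 probe the share went from 40.6 ± 2.40% (n = 4) to 32.7 ± 1.04% (n = 5), with no overlap. Positions 9 to 17 went the other way there, from 21.2 ± 1.80% to 26.6 ± 2.45%, also with no overlap. The first 8 kb held 13.4%, 10.2% and 10.1% over the activation times at the IgG1 probe and 4.48% to 15.2% over all groups.

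**Figure D5:**
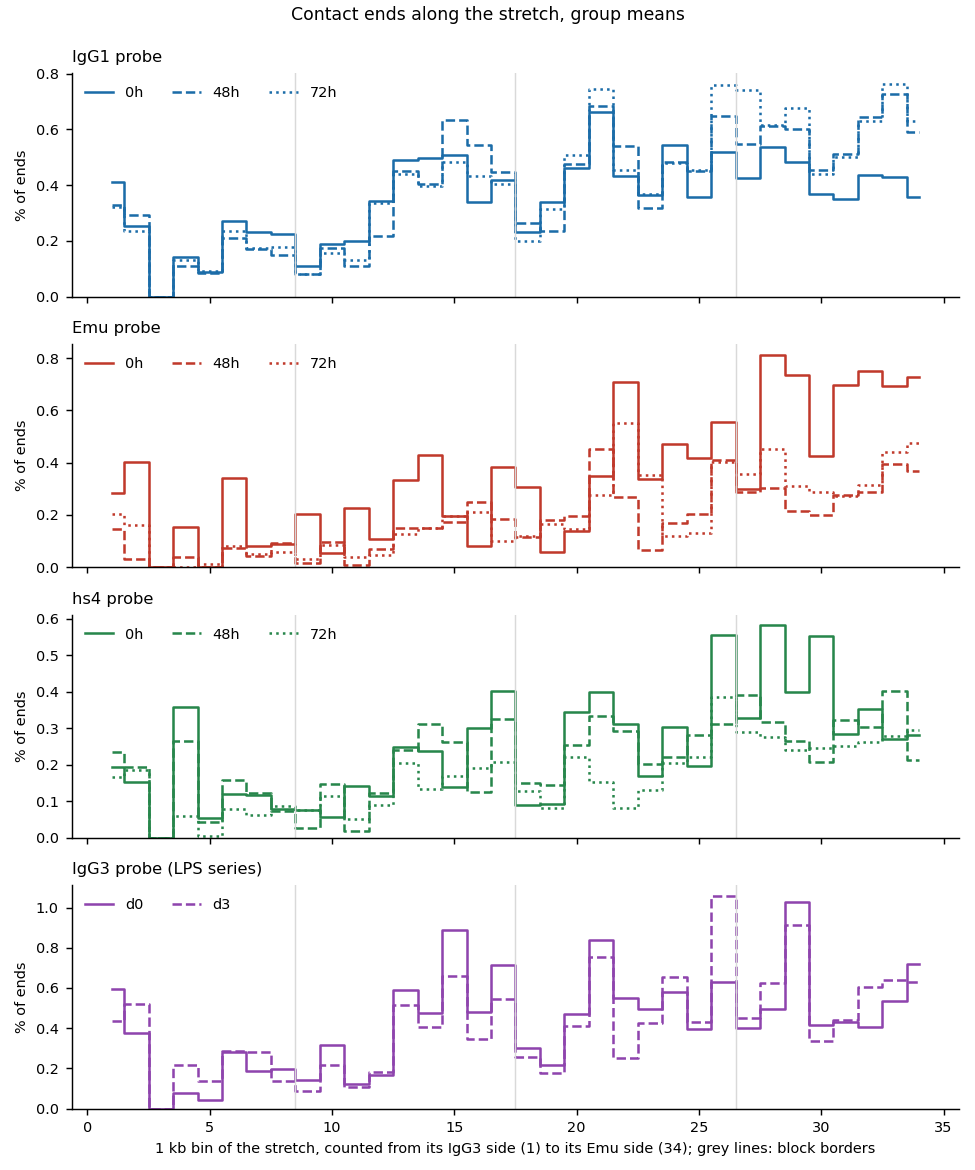
The percentage of contact ends (y axis) is shown per 1 kb bin of the stretch (x axis, IgG3 side to Emu side). Only pairs with no end in map bins 1 to 25 are counted. Values are group means at the IgG1, Emu, hs4 and IgG3 probes, with line styles for the time points and grey lines at block borders. At the IgG1 probe the fullest bin is 21 at 0 h, with 0.661%, and 33 at 48 h and 72 h, with 0.726% and 0.764%.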

How the data were processed

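Each library has 1 deposited matrix, whose unit is a signal that the authors scaled so that each matrix sums to 300000. Per the submitters' processing notes, reads were aligned with Bowtie2 to mm9. The contact caller and the version of Bowtie2 were not given in the sources used here. Map bins are counted from 1, in the upper triangle with the diagonal, and the stretch is bins 181 to 214 of 234. The values behave as whole contacts divided by a whole number per bin and rescaled, a step that no label states. Contacts recovered on that basis served as depth and as an alternative only. Off the diagonal at least 99.84% of values under 20 contacts came out whole, to a tolerance of 0.04. On the diagonal the lowest library had 44.9% and the median one 98.6%. How reads were counted therefore bears on each depth given.

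Groups followed the labels. Where clones are called summed here, the scaled maps of both clones with 1 replicate number were averaged with equal weight, and only recovered contacts were added up. For IgG1 libraries of the activation series this gave 2, 3 and 3 samples. The title of 1 library at 0 h of each set names replicates 1 and 3 together. Clone was a term of the model for the unsummed Spt5 libraries of the IgG1 probe. Zone features (21 zone pairs and 5 totals) and 325 block pairs, filtered at a mean of 100, entered limma (version 3.58.1, R 4.3.3) as log2 of the signal plus 50, with Benjamini-Hochberg adjustment within each of 15 comparisons and 10 interactions at 0.05. A log2 change on this scale understates that of low values. The 48 h and 72 h comparisons share their 0 h samples. Partner shares had an exact two-sided permutation test. The tests were run on simulated data first. Named regions are the total, its 5 classes, the 3 largest called block pairs each way per comparison with 1 direction in all samples, and the 3 fullest and emptiest bins. The members and lists were chosen with earlier results of these data known. Alternatives covered the pseudocount (10 and 200), scaling, the filter, pairs within 10 kb of the viewpoint, pairs under 5 kb, bins 1 to 25, a narrower stretch (bins 186 to 209), a replicate block, clones, voom on recovered contacts, and each library left out. Where clones were summed, leaving out a library took out the whole sample of both clones. Neither sequences nor coordinates of the bins are used here.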

Additional observations from a re-analysis of the deposited data

Results flagged for a closer look

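Of 60 tests of whether a change differed between probes, 15 passed. The changes seen from Emu lay below those seen from IgG1 by log2 differences of -2.06 at 48 h and -2.52 at 72 h for contacts of the stretch with the Emu zone, of -1.15 and -0.94 inside the stretch, and of -1.17 and -1.04 for the total. Emu lay below hs4 at 48 h by -0.86 inside the stretch and -0.85 for the total. The 72 h changes at hs4 lay below those at IgG1 by -1.49 with the Emu zone and -0.71 for the total. The LPS change at IgG3 lay above the 72 h change at Emu by 0.91 for the total, and below that at IgG1 by -1.68 with the Emu zone. The Spt5 change at IgG1 lay below that at IgG2a by -2.69 with the IgG1/IgG3 zone, -1.33 with the Emu zone and -0.59 for the total.

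Clones of the IgG1 probe were checked in 24 contrasts of the activation and Spt5 series, and moved apart in 2, both in the activation series. In these, every sample of one clone rose past its controls and every sample of the other fell below them. For the total at 48 h the log2 ratios of means were 0.20 in clone 1 and -0.24 in clone 2, a difference of 0.44. For the IgG1/IgG3 zone at 72 h they were 0.10 and -0.53, a difference of 0.64. Neither difference was tested.

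One sample stood apart from its group. Among the 4 Spt5 controls at the IgG1 probe, clone 2 replicate 2 had 0.603% of the map as contacts of the stretch with the Emu zone, where the others had 0.771% to 0.779%, a gap of 0.952 of the whole range. It was the 1 such sample in 12 group checks, and chance alone sets apart about 1 in 20 groups.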

How the results depend on the processing

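Of 18 called classes of contact, 7 kept their call under every alternative other than leaving out a library. These are the IgG2a zone at the IgG1 and Emu probes at 48 h and 72 h and at hs4 at 72 h, and the Emu zone at 72 h at the IgG1 and Emu probes. A change of sign between values that passed no test and lay within 2 SE of the reported one was not counted as a reversal (99 cases, and 106 with a library left out). Unless a value or the way an alternative was built shows it, the cause of a difference was not tested.

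For the total of the stretch, the 72 h change at Emu passed at -0.96 with a pseudocount of 200, -0.80 with the median of ratios, -0.77 without pairs near the viewpoint, -0.97 without pairs under 5 kb, -0.96 without bins 1 to 25 and -0.79 with voom. At 48 h it missed at -1.11 with the narrower stretch. At hs4 the 72 h change passed at -0.67, -0.73, -0.64 and -0.54 with the median of ratios, without pairs near the viewpoint, without pairs under 5 kb and with voom. At IgG1, the median of ratios gave -0.26 at 48 h and -0.28 at 72 h, voom 0.25 at 72 h and 0.15 from 48 h to 72 h, all passing, and clone 1 alone 0.20 at 48 h, not passing. For Spt5 at IgG2a it was -0.05 with the median of ratios, and missed at 0.48 without pairs near the viewpoint and 0.57 without pairs under 5 kb. For 3 h of TPL voom gave 0.50, not passing.

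Other reversals passed no test. They were, with the median of ratios, -0.01 with the hs4 zone and -0.04 inside the stretch at IgG1 at 72 h and -0.50 inside the stretch for Spt5 at IgG2a. Without pairs under 5 kb they were, inside the stretch, 0.12 for IgG1 72 h against 48 h, 0.83 for 3 h of TPL and -0.43 at IgG3, and for Spt5 -0.13 with the IgG1/IgG3 zone at IgG1 and -0.05 with the Emu zone at IgG2a. The narrower stretch gave 2.22 with the IgG2a zone for 3 h of TPL, voom 0.63 inside the stretch there, clone 1 alone 0.10 with the IgG1/IgG3 zone at 72 h and clone 2 alone 0.15 inside the stretch for 72 h against 48 h. Among partner shares, in percentage points, the values without pairs under 5 kb were 0.55 inside the stretch for IgG1 72 h against 48 h, 7.57 with the Emu zone at Emu at 48 h, and -3.18 and -3.12 with the IgG2a and Emu zones for Spt5 at IgG2a, and clone 1 alone gave -0.07 with the hs4 zone at IgG1 at 72 h.

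Between probes, the median of ratios ended the calls on the total at -0.53 for Emu against hs4 at 48 h, -0.47 and -0.57 for Emu against IgG1 at 48 h and 72 h and -0.49 for hs4 against IgG1, and turned those for Spt5 to 0.08 for the total and 0.39 inside the stretch. Leaving out pairs near the viewpoint ended those at -0.40 for Emu against hs4 and -0.51 for Spt5 and made one at 0.70 for IgG3 against hs4. Leaving out pairs under 5 kb ended those at -0.73 for hs4 against IgG1 and 0.85 for IgG3 against Emu, with -0.09 inside the stretch for the latter. The narrower stretch ended 4, at -0.78, -0.70, 0.84 and -0.63 for Emu against hs4, hs4 against IgG1, IgG3 against Emu and Spt5, and voom ended 1 at -0.63 for Emu against hs4.

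Counts of called block pairs of the stretch moved too. With no filter they were 1 at Emu at 48 h, 1 at hs4 at 72 h and 13 at IgG1 at 72 h. They were 0 at Emu at 72 h with a pseudocount of 10 or without pairs under 5 kb, 0 at IgG3 with a pseudocount of 10, no filter, voom or no pairs under 5 kb, and 0 for Spt5 at IgG1 with the median of ratios, no filter or no pairs under 5 kb, and 2 with clones summed. Voom gave 9 at Emu and 1 at hs4 at 48 h, 1 at hs4 at 72 h and 4 for Spt5 at IgG2a. Clone 1 alone gave 11 at 72 h and 1 for 72 h against 48 h at IgG1, and clone 2 alone 8 at 48 h and 9 at 72 h.

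Replicate numbers did not pair the samples. Over 38 same-numbered pairs the correlation of deviations ran from -0.118 to 0.0886, and 15 of 49 samples correlated best with their own number. With the replicate block the counts were 0 at Emu at 72 h, 1 at hs4 at 48 h, 0 for Spt5 at IgG1 and 0 at IgG3. The IgG2a total after Spt5 depletion was 0.53 and not called, nor were the IgG2a zone at IgG1 (1.04) and at IgG2a (1.59) or the IgG1/IgG3 zone (3.10). Between probes the block ended calls on the total at -0.63 for Emu against hs4, 0.70 for IgG3 against Emu and -0.56 for Spt5.

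In turn, 1 library was left out, or 1 sample of both clones for the activation series of the IgG1 probe. The total then ranged from -1.43 to -1.0 at Emu at 48 h, -1.10 to -0.73 at 72 h, -0.81 to -0.47 at hs4 at 72 h and 0.42 to 0.75 for Spt5 at IgG2a. Counts ran from 0 to 2 at Emu at 48 h and at 72 h, 0 to 1 at hs4 at 48 h and at 72 h, 7 to 20 at IgG1 at 48 h, 12 to 21 at 72 h, 0 to 2 for Spt5 at IgG1, 0 to 5 at IgG2a and 0 to 1 at IgG3. Between probes the total ran from -1.11 to -0.68 for Emu against hs4 at 48 h, -0.88 to -0.54 for hs4 against IgG1, 0.66 to 1.04 for IgG3 against Emu and -0.75 to -0.43 for Spt5. An arm left with 1 sample is assumed to vary like the other groups. In the TPL series and the controls of the IgG2a probe some classes rest on 10 contacts or fewer.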

Other observations

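Among clones kept apart at the IgG1 probe of the activation series, 7 of 15 partner shares passed the exact permutation test (adjusted p = 0.0204 in each). Each library was a unit there, shuffled without regard to clone, and the adjustment ran over these 15 shares alone. In the main permutation test, with clones summed and adjustment over 75 shares of all series, none passed (lowest adjusted p = 0.385). The share with the IgG2a zone differed by -10.59 percentage points at 48 h and -11.06 at 72 h, and that with the Emu zone by 4.08 at 48 h, 6.64 at 72 h and 2.55 from 48 h to 72 h. The share inside the stretch differed by 13.46 and that with the IgG1/IgG3 zone by -7.73 at 48 h. Whether libraries of both clones with 1 number share a culture is not stated in the labels.

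Shares of ends were also taken over pairs with no end in map bins 1 to 25. Of these ends, the stretch held 9.26 ± 0.627% in the Spt5 controls at the IgG1 probe (n = 4) and 8.88 ± 0.835% after depletion (n = 5). At the IgG2a probe it held 5.18 ± 0.935% in controls (n = 2) and 6.75 ± 0.460% after depletion (n = 3). At the Emu probe without TPL it held 7.15 ± 1.60% (n = 3).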
